A study of Mus musculus with 6 samples.

Results

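The BCL2 family genes set whether a cell keeps its mitochondria intact or releases cytochrome c and dies. The 10 members described here were taken by gene symbol out of 37991 genes counted in each library, and all 10 had a row in the counts and passed the filter on low counts. They fall into 3 anti-death genes (Bcl2, Mcl1, Bcl2l1), 2 effectors (Bax, Bak1) and 5 BH3-only genes (Bcl2l11, Bmf, Bbc3, Bid, Bad). RNA sequencing had been done on natural killer (NK) cells sorted from the spleen as CD27+ CD11b+, an intermediate stage of NK cell maturation, in 3 Rroid-deficient and 3 wildtype libraries. All mice were labelled C57BL6. Rroid is a noncoding transcript from a regulatory element near Id2; its own level was not analysed here. The labels give no treatment, age or sex, nor how the deficiency was made. They do not say whether each library came from its own mouse, so p-values measure only how these libraries differ, and that may be technical.

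The anti-death proteins hold the effectors in check at the outer mitochondrial membrane. BH3-only proteins, which are made or activated under stress or cytokine loss, bind the groove of the anti-death proteins through a short helix, the BH3 region, and some also activate the effectors directly. Freed and activated Bax and Bak form pores through which cytochrome c leaves, and caspases follow. NK cells depend on interleukin-15 for survival. Mcl1 is needed for NK cell survival in mice, and loss of Bcl2l11 (Bim) is known to prolong the life of lymphocytes deprived of cytokines.

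The BH3 region is a sequence that all 10 members share, and its coding sequence is shown for each. In the longest annotated coding sequence of every member, in-frame codons for leucine, 3 residues of any kind, a small residue (glycine, alanine or serine) and aspartate occurred exactly once. The same pattern was found in 33.8% of the 21778 mouse coding sequences searched the same way, so it does not identify the family by itself. The sequences come from the GENCODE M21 transcripts and run 42 bases on the coding strand, 5′ to 3′, with the leucine codon and the adjoining small-residue and aspartate codons in capitals.
Bcl2: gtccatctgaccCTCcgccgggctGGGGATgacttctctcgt
Mcl1: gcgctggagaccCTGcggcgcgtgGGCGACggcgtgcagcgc
Bcl2l1: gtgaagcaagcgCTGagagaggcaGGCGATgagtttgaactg
Bax: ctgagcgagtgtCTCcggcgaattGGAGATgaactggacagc
Bak1: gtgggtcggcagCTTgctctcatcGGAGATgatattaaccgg
Bcl2l11: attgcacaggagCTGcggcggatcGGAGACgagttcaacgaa
Bid: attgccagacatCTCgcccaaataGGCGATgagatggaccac
Bmf: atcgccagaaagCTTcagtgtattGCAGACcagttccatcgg
Bbc3: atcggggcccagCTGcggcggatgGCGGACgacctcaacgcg
Bad: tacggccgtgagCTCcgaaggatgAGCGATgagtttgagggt

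The small residue was glycine in 7 members, alanine in 2 (Bmf and Bbc3) and serine in 1 (Bad). In Bcl2l11, Bmf, Bbc3 and Bad the match began 47 to 54 codons before the end of the coding sequence. In the anti-death genes and effectors it began 130 to 144 codons before the end, ahead of the remaining shared regions that build the groove, and in Bid 106 codons before it.

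Reads assigned to genes ranged from 6146465 to 7363793 in deficient and from 5823626 to 9216430 in wildtype libraries. Id2 had 38.9, 66.7 and 81.2 CPM (read counts scaled to library size with TMM factors) in deficient libraries 1 to 3, against 467.5, 338 and 341.5 in wildtype libraries 1 to 3 (log2 fold change -2.62, SE 0.30, edgeR adjusted p = 0.0308). The labels state the genotype at Rroid only, so Id2 does not check them directly. All 10 NK cell markers were tested, and their summed level ranged from 9754 to 10401 CPM in deficient and from 11340 to 13913 CPM in wildtype libraries. Gzma differed most, at a mean of 2560 CPM in deficient and 4501 CPM in wildtype libraries, without passing (edgeR adjusted p = 0.543). Klrb1c and Klrk1 were also lower in every deficient library. Ncr1, Eomes, Itgam and Prf1 were lower on average with overlapping groups, and Tbx21, Cd27 and Il2rb had positive log2 fold changes (0.47, 0.17 and 0.10). Summed T cell markers, 5 of 12 tested, ranged from 346 to 451 CPM in deficient and from 171 to 266 CPM in wildtype libraries, with Cd6 and Cd8a at 0 in all 6 and Cd3e at 0 in all but 1 wildtype library. Of the 5 tested, Cd3g (10.2-fold), Cd3d (7.26-fold) and Trbc2 (2.16-fold) were higher in every deficient than in every wildtype library without passing (edgeR adjusted p = 0.131 for Cd3g, 0.543 for Cd3d and 0.787 for Trbc2), and Trac and Trbc1 overlapped. Summed myeloid markers, 2 of 8 tested, ranged from 23.7 to 30.4 CPM in deficient and from 5.24 to 12.7 CPM in wildtype libraries, with S100a8, C1qa and Clec9a at 0 in all. Most of the deficient sum was 1 gene, Cd68, with 30.4, 21.0 and 19.6 CPM in deficient and 2.25, 11.3 and 1.10 CPM in wildtype libraries (edgeR adjusted p = 0.914). The other tested marker, Csf1r, had a log2 fold change of -0.61 with overlapping groups. B cell markers overlapped between the genotypes (328 to 653 CPM in deficient, 234 to 342 CPM in wildtype), with Pax5 at 0. Summed erythroid markers (1.47 to 4.76 CPM in deficient, 1.73 to 4.4 CPM in wildtype) and stromal or endothelial markers (35.6 to 82.2 CPM in deficient, 35.5 to 44.0 CPM in wildtype) also overlapped. The NK, T cell and myeloid sums thus moved with genotype, although not every marker in them did. The NK sum was apart through Gzma, and the other NK markers summed together overlapped between the genotypes. The part of the NK, T cell and myeloid sums in the results on the BCL2 family was not tested. The share of tested genes without a read was 5.57%, 2.43% and 0.392% in deficient libraries 1 to 3, against 5.63%, 0.281% and 0.23% in wildtype libraries 1 to 3, so replicate 1 had the most undetected genes in each genotype.

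The genotypes were compared for each member and for each class. No member passed in edgeR at an adjusted p of 0.05 over all 11724 genes tested, of which 0.0171% passed. Because whole sorted samples were sequenced, fewer cells of a type and less RNA per cell cannot be told apart. At an unadjusted p under 0.05 the count was 1 member, Bmf, where 5.29% of all tested genes reached that level, and DESeq2 also called Bmf. No member was called by limma-voom, with or without sample quality weights, or by edgeR under a stricter filter, fits that called 0.00853%, 0.0682% and 0.0177% of genes. The libraries of the genotypes did not overlap for 2 members, Bcl2l1 with all deficient libraries higher and Bmf with all deficient libraries lower, against 12.4% of all tested genes (6.03% higher, 6.33% lower). Of the 10 members, 4 were higher on average and 6 lower, with a median log2 fold change of -0.10, against 0.02 over all genes tested. The counts by direction are a description of these members only.

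**Figure D1:**
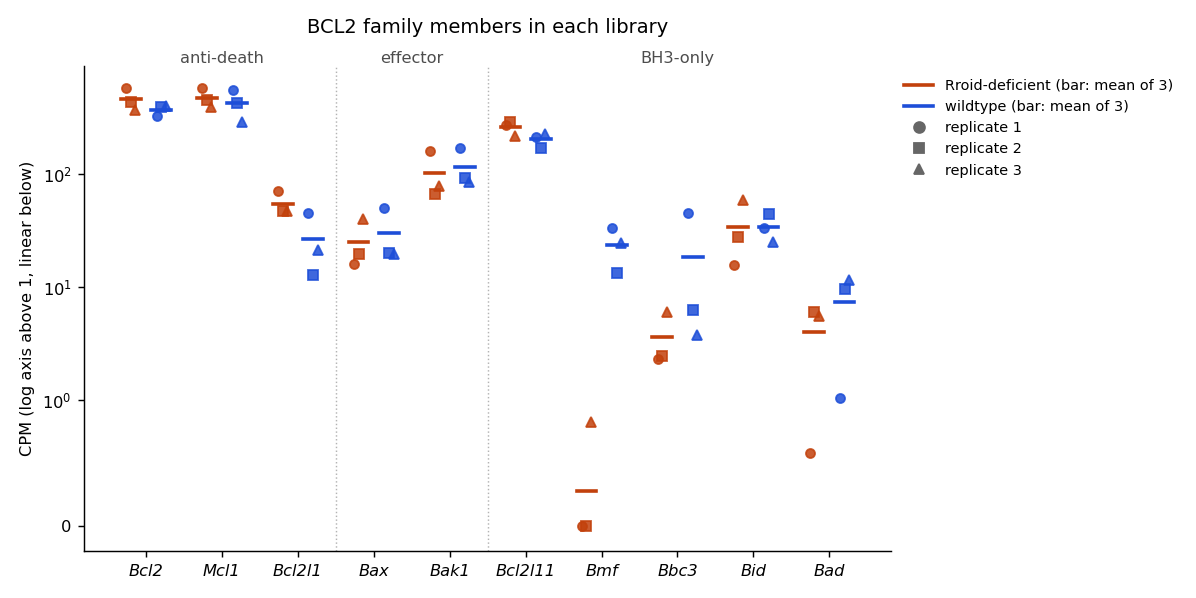
CPM of each BCL2 family member in every library, with Rroid-deficient libraries left of wildtype libraries, marker shapes for replicates and bars for the mean of 3 libraries; the axis is logarithmic above 1 CPM and linear below. Bmf lies at 0 to 0.830 CPM in deficient libraries against 13.3 to 33.7 CPM in wildtype libraries, and the libraries of Bcl2, Mcl1 and Bcl2l11 overlap.

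Among the anti-death genes, Bcl2, the founding member, had 582, 439 and 368 CPM in deficient libraries 1 to 3, against 325, 391 and 404 CPM in wildtype libraries 1 to 3. Deficient library 1 was the highest of the 6 and deficient library 3 lay inside the wildtype range, so the groups overlapped. Its log2 fold change of 0.31 (SE 0.21, 95% interval -0.15 to 0.77) did not pass (edgeR adjusted p = 0.925). It was 0.10 without deficient library 1 and 0.014 without replicate 1 of both genotypes. Mcl1, whose protein turns over fast and is needed continuously, had 584, 453 and 389.8 CPM in deficient libraries and 558, 424 and 292 CPM in wildtype libraries. The 2 ranges overlapped, with wildtype library 3 below every deficient library (log2 fold change 0.16, SE 0.25, edgeR adjusted p = 0.944). The 95% interval of -0.40 to 0.73 leaves changes of either sign within reach.

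Bcl2l1, which encodes Bcl-xL, had 70.5, 46.98 and 47.6 CPM in deficient libraries 1 to 3, against 45.7, 12.8 and 21.2 CPM in wildtype libraries 1 to 3. All deficient libraries lay above all wildtype libraries, but deficient library 2 and wildtype library 1 were almost level. The mean was 55.0 ± 13.4 CPM in deficient and 26.6 ± 17.1 CPM in wildtype libraries (SD, n = 3 each), a log2 fold change of 1.05 (SE 0.52, 95% interval -0.11 to 2.21). It did not pass (edgeR adjusted p = 0.925, and 0.408 to 0.999 over 15 alternative fits). Its log2 fold change was 1.68 without wildtype library 1 and 0.72 without wildtype library 2. With Bcl2 and Mcl1, all 3 anti-death genes were highest in deficient library 1.

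The effectors showed no separation. Bax, which moves from the cytosol into the mitochondrial membrane when activated, had 16, 19.6 and 40.4 CPM in deficient libraries and 49.7, 20.2 and 19.8 CPM in wildtype libraries. One library of each genotype, deficient 3 and wildtype 1, stood well above the rest of its group. Bax had a log2 fold change of -0.24 (SE 0.59, 95% interval -1.55 to 1.07, edgeR adjusted p = 0.968). Its sign was not stable, with 0.33 without wildtype library 1 and 0.58 without replicates 1 of both genotypes.

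Bak1, whose protein resides in the outer membrane, had 159, 66.2 and 78.8 CPM in deficient libraries and 171, 92.6 and 85.3 CPM in wildtype libraries. Replicate 1 was the highest of its group in both genotypes, and the groups overlapped. Bak1 had a log2 fold change of -0.19 (SE 0.40, 95% interval -1.09 to 0.70, edgeR adjusted p = 0.962), and it was 0.18 without wildtype library 1. The annotation places 437 exonic bases of Ggnbp1 on the opposite strand of Bak1, and the amplification kit does not mark strand, so reads of the pair cannot be told apart there.

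Among the BH3-only genes, Bcl2l11 (Bim), which binds all anti-death proteins and is the main one induced by cytokine loss in lymphocytes, had the highest CPM per kb of exon in both genotypes. In CPM, it had 273, 291 and 219 CPM in deficient libraries and 215, 171 and 225 CPM in wildtype libraries. Deficient library 3 lay below wildtype library 3, so the groups overlapped, and the spread was small, with a coefficient of variation of 14.4% in deficient and 14.1% in wildtype libraries. Bcl2l11 had a log2 fold change of 0.36 (SE 0.21, 95% interval -0.12 to 0.83, edgeR adjusted p = 0.925). It stayed between 0.24 and 0.47 in all 15 alternative fits, in none of which it passed.

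Bmf, whose protein is held at the actin motor machinery in resting cells and released on loss of attachment or other stress, was at or near zero in the deficient cells. Its raw counts were 0, 0 and 6 in deficient libraries 1 to 3, against 225, 124 and 155 in wildtype libraries 1 to 3. In CPM this was 0, 0 and 0.830 in deficient and 33.7, 13.3 and 24.4 in wildtype libraries, and 0 reads allow a level of up to 3 counts, or 0.432 CPM in deficient library 1 and 0.489 CPM in deficient library 2, for counting error only. Every deficient library lay far below every wildtype library. The means were 0.277 ± 0.479 CPM in deficient and 23.8 ± 10.2 CPM in wildtype libraries (SD, n = 3 each), 86.1-fold lower in deficient libraries by the ratio of means.

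The log2 fold change of Bmf was -6.30 (SE 1.32, 95% interval -9.24 to -3.35), and it did not pass (edgeR unadjusted p = 0.000752, adjusted p = 0.543, and 3.54e-06 to 0.999 over the 15 alternative fits). DESeq2 on the same filtered genes called it (adjusted p = 1.327e-05), as did DESeq2 without a filter (3.54e-06) and edgeR without a filter (0.000151), fits that called 0.569%, 0.715% and 0.495% of genes. Of 3643 tested genes at a mean of 5 to 20 CPM, 4 (0.11%), Bmf itself included, had a log2 fold change at or under that of Bmf. The direction was the same in all 15 alternative fits. All 6 deficient reads came from library 3. For deficient libraries 1 and 2, the wildtype mean was 51.6-fold the level of 3 counts per library. This ratio allows for counting error only, not for the spread between libraries, so it is not a lower bound. Replicates 1 of both genotypes were the libraries with most missing genes, and without them the log2 fold change of Bmf was -5.39 (edgeR adjusted p = 0.713). No annotated gene shares exonic bases with Bmf.

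RefSeq places 3 transcription starts at Bmf, and the window around one of them is shown because Bmf was the member with the largest difference. It was searched for the E-box, the motif of the E proteins, which Id2 protein is known to bind. One form of the box, CAGCTG, was present in all 3 Bmf windows and in 1 window of Bcl2l11, or 4 of the 18 windows of the 10 members, against 16.3% of the 32851 mouse windows of the same length (both strands, since the motif is its own reverse complement). Another form, CAGGTG or its reverse complement CACCTG, was in 0 of the 3 Bmf windows and in 3 of the 18 member windows, those of Bbc3 and Bad, against 20.2% of all. The general form CANNTG was in 13 of the 18 windows and in 72.3% of all. The window shown covers 250 bases before to 50 after the start at chr2:118547550-118547849 (GRCm38.p6, minus strand), 300 bases 5′ to 3′ with both copies of CAGCTG in capitals. A match describes the letters only and is not a binding site.
Bmf promoter: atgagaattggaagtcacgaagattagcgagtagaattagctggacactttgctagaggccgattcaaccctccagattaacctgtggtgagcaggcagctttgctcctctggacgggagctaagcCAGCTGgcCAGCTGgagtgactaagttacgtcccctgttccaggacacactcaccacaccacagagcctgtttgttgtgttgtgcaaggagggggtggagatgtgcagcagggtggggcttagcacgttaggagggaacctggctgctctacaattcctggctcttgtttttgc

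Bbc3, which encodes Puma, a strong activator induced by p53, had 2.31, 2.45 and 6.08 CPM in deficient libraries, against 45.1, 6.34 and 3.78 CPM in wildtype libraries. Wildtype library 1, with 301 of the raw counts, stood far above the other 5 libraries, which held 15 to 59 counts each. The groups overlapped. The log2 fold change of -2.34 (SE 1.06, 95% interval -4.69 to 0.01, edgeR adjusted p = 0.914) became -0.50 without wildtype library 1, so the difference rests on that library.

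Bid, the BH3-only gene whose protein caspase-8 and granzyme B cleave into its active form, had 15.6, 28.1 and 58.9 CPM in deficient libraries and 33.7, 44.5 and 25.2 CPM in wildtype libraries. Deficient libraries held both the lowest and the highest value, and the means were nearly equal (34.2 ± 22.3 CPM in deficient and 34.4 ± 9.66 CPM in wildtype libraries, SD, n = 3 each). Bid had a log2 fold change of -0.01 (SE 0.55, 95% interval -1.24 to 1.21, edgeR adjusted p = 0.999). Bid shares 628 exonic bases with Bcl2l13 on the opposite strand.

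Bad, whose protein is kept inactive by phosphorylation, had 0.577, 6.04 and 5.53 CPM in deficient libraries and 1.05, 9.56 and 11.5 CPM in wildtype libraries. In both genotypes replicate 1 was the low library, with raw counts of 4 in deficient 1 and 7 in wildtype 1. The groups overlapped, and the log2 fold change of -0.86 had an SE of 1.19 (95% interval -3.51 to 1.78, edgeR adjusted p = 0.94). Bad shares 524 exonic bases with Gpr137 on the opposite strand.

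**Figure D2:**
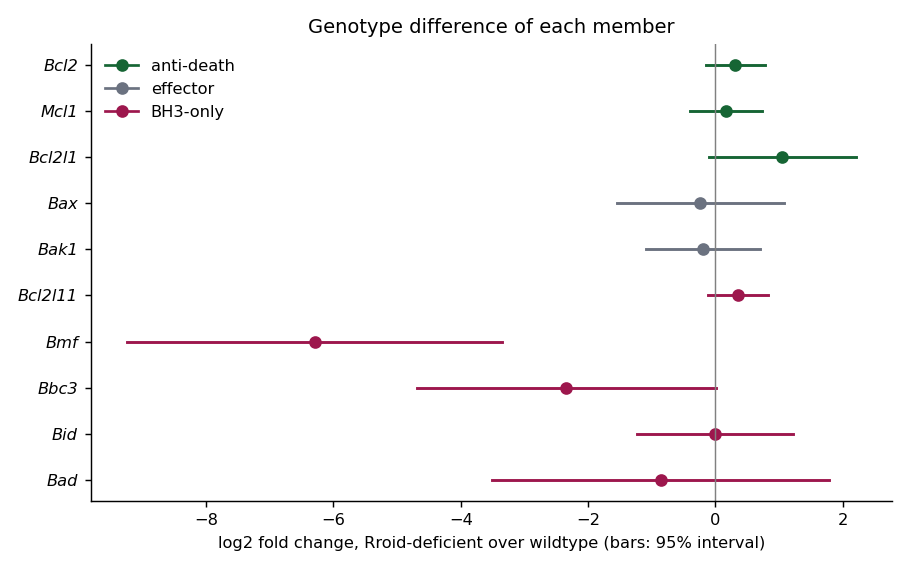
Log2 fold change of each member, Rroid-deficient over wildtype, with 95% intervals from edgeR's quasi-likelihood fit, coloured by class. The interval of Bmf, -9.24 to -3.35, lies apart from 0, those of the other 9 members include 0, and the intervals of Bcl2, Mcl1 and Bcl2l11 are the narrowest.

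By class, the 3 anti-death genes all had positive log2 fold changes (median 0.31), both effectors had negative ones (median -0.22), and of the BH3-only genes 1 was positive and 4 were negative (median -0.86). No member of any class passed in edgeR, and the 0.02 median over all genes tested stands beside these values without a test. Summed anti-death levels were 1237, 938 and 805 CPM in deficient libraries, against 929, 828 and 717 CPM in wildtype libraries. The ranges overlapped. Summed BH3-only levels were 292, 328 and 290.4 CPM in deficient and 329, 245 and 290.1 CPM in wildtype libraries, and summed effector levels 175, 85.8 and 119 CPM in deficient and 221, 113 and 105 CPM in wildtype libraries. Neither sum separated the genotypes.

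Within the BH3-only class, Bcl2l11 made up 93.7%, 88.9% and 75.4% of summed BH3-only CPM in deficient libraries, against 65.5%, 69.9% and 77.7% in wildtype libraries. Per kilobase of exon, which gives the long Bcl2l11 less weight, its share was 85.7%, 76.1% and 55.6% in deficient libraries, against 41.7%, 49.5% and 60.9% in wildtype libraries. On both scales the ranges overlapped through deficient library 3 and wildtype library 3. The ratio of summed anti-death to summed BH3-only CPM was 4.24, 2.86 and 2.77 in deficient libraries and 2.82, 3.38 and 2.47 in wildtype libraries. Deficient library 1 was above the rest and the other 5 were mixed. Per kilobase of exon the ratio was 6.29, 3.995 and 3.35 in deficient libraries and 3.24, 3.93 and 2.91 in wildtype libraries. On that scale deficient library 2 also lay just above every wildtype library, and deficient library 3 lay below wildtype library 2.

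Levels of different genes were compared per kilobase of exon. On this scale Mcl1 was the most abundant member, with 139 ± 29.0 CPM per kb in deficient and 124 ± 38.9 CPM per kb in wildtype libraries (SD, n = 3 each), and in each genotype its lowest library lay above the highest library of every other member. Bak1 and Bcl2 followed and overlapped each other, Bak1 with 42.2 ± 21.0 CPM per kb in deficient and 48.3 ± 19.7 CPM per kb in wildtype libraries, and Bcl2 with 50.6 ± 11.96 CPM per kb in deficient and 40.8 ± 4.62 CPM per kb in wildtype libraries. Bcl2l11 came next with 32.5 ± 4.69 CPM per kb in deficient and 25.4 ± 3.59 CPM per kb in wildtype libraries, below every Bcl2 value of its genotype.

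Bax, with 16.1 ± 8.35 CPM per kb in deficient and 18.98 ± 10.9 CPM per kb in wildtype libraries, overlapped Bcl2l11 in wildtype libraries and lay below it in deficient libraries. The other 5 members stood under 10 CPM per kb on average in wildtype libraries, in the order Bid, Bbc3, Bcl2l1, Bmf and Bad, each overlapping the next. In deficient libraries the order was Bcl2l1, Bid, Bbc3, Bad and Bmf, with Bid apart from Bbc3 and Bad apart from Bmf. The closest values of Bad and Bmf were 0.225 CPM per kb in deficient library 1 and 0.158 CPM per kb in deficient library 3. These rest on 4 and 6 reads, and in CPM Bad and Bmf overlapped. The lowest member in wildtype libraries was Bad, with 2.88 ± 2.17 CPM per kb. In deficient libraries it was Bmf, with 0.053 ± 0.091 CPM per kb, against 4.53 ± 1.94 CPM per kb for Bmf in wildtype libraries. Bcl2l1 ranked above Bid and Bbc3 in deficient libraries, with 12 ± 2.92 CPM per kb, against 5.79 ± 3.73 CPM per kb in wildtype libraries. Exon lengths come from an annotation newer than the counts, which shifts the scale of a gene but not its comparison between genotypes.

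**Figure D3:**
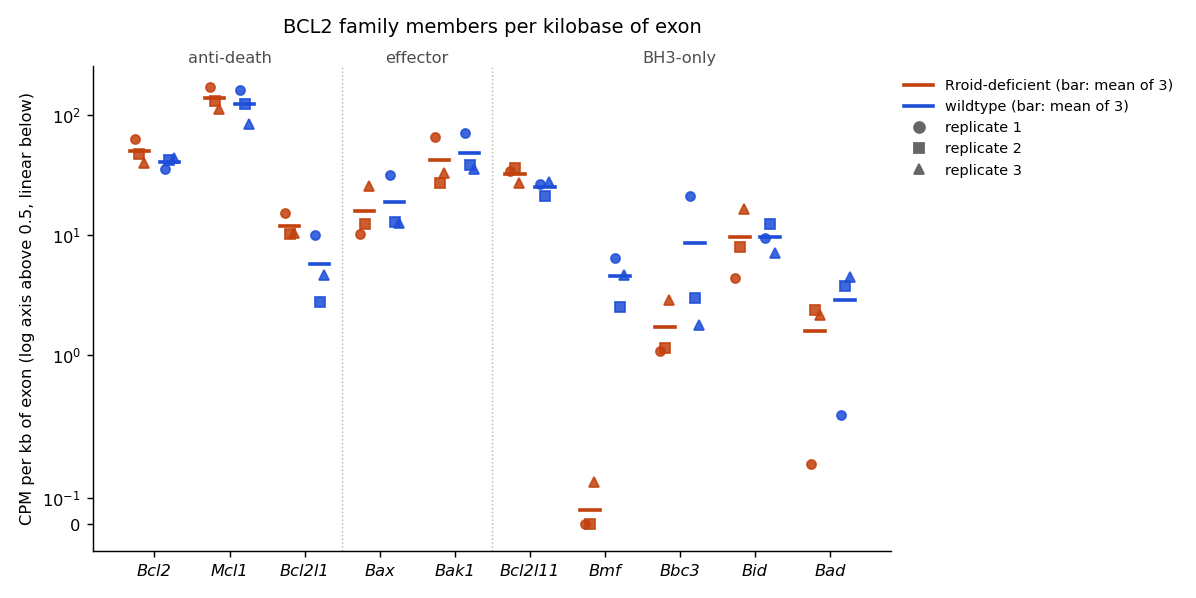
CPM per kilobase of exon for each member and library, Rroid-deficient left of wildtype, with bars for the mean of 3 libraries; the axis is logarithmic above 0.5 and linear below. Mcl1 stands above all other members in both genotypes, and Bmf is the lowest in deficient libraries.

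The other family genes gave few further values. Of 15, 13 had a row and 6 were tested, of which none passed in edgeR and none reached an unadjusted p under 0.05, and DESeq2 called none. Pmaip1, which encodes the Mcl1-binding BH3-only protein Noxa, had 12.97, 4.24 and 1.25 CPM in deficient libraries and 0.599, 0.107 and 2.99 CPM in wildtype libraries, with overlapping groups (log2 fold change 2.32, SE 1.42, edgeR adjusted p = 0.925). Bnip3, a mitophagy receptor gene, averaged 2.65 ± 2.01 CPM in deficient and 7.495 ± 5.49 CPM in wildtype libraries (SD, n = 3 each), and its relative Bnip3l averaged 86.8 ± 8.85 CPM in deficient and 65.98 ± 15.0 CPM in wildtype libraries. The anti-death gene Bcl2l2 averaged 6.98 ± 5.81 CPM in deficient and 9.24 ± 6.03 CPM in wildtype libraries, Bcl2l12 5.92 ± 3.63 CPM in deficient and 7.39 ± 3.68 CPM in wildtype libraries, and Bcl2l13 62.3 ± 49.2 CPM in deficient and 47.1 ± 14.6 CPM in wildtype libraries, each with overlapping groups.

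Bcl2a1b, an anti-death gene of blood cells with near-identical copies, did not pass the filter. Its raw counts were 24, 4 and 18 in deficient libraries and 0, 1 and 2 in wildtype libraries, without overlap, and how reads were divided among the copies is uncertain. It was chosen for mention after its values were seen. The T cell sum and the myeloid sum above, the latter mainly through Cd68, also lay higher in every deficient library. A link between these sums and Bcl2a1b was not tested. Bok, Bcl2l10 and Bcl2l14 had no read in any library, Bik had 0, 0 and 1 reads in deficient and 0, 2 and 0 in wildtype libraries, and Hrk 1 read in all.

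The machinery around the family was described from 5 further lists, of which no member passed in edgeR or in DESeq2. Together with the other family genes, 68 genes were tested, and the libraries did not overlap for 6 of them, or 8.82%, against 12.4% of all tested genes. In the list of apoptosome genes, caspases and their inhibitors, 16 were tested, of which 7 were positive and 9 negative (median log2 fold change -0.14). Cycs, which encodes cytochrome c, had 2.02, 3.59 and 4.01 CPM in deficient libraries and 24.6, 12.6 and 4.88 CPM in wildtype libraries. The groups did not overlap, although wildtype library 3 was close to the deficient ones (SE 0.90 on a log2 fold change of -2.12, edgeR adjusted p = 0.914), and Cycs has many processed pseudogenes among which its reads could be split. The caspase inhibitor gene Xiap averaged 150.5 ± 55.3 CPM in deficient and 107.5 ± 21.3 CPM in wildtype libraries.

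Of 8 tested genes of the death receptor arm, 7 had a positive log2 fold change (median 0.27), and the groups overlapped for all 8. Tnfrsf1b, a TNF receptor gene, averaged 115 ± 13.3 CPM in deficient and 95.8 ± 23.5 CPM in wildtype libraries, and Fas 5.23 ± 5.59 CPM in deficient and 1.97 ± 1.93 CPM in wildtype libraries. Of 10 tested genes of the p53 response, 5 were positive and 5 negative. Sesn1, a stress-responsive p53 target, averaged 38.6 ± 13.1 CPM in deficient and 82.4 ± 12.2 CPM in wildtype libraries without overlap (log2 fold change -1.09, SE 0.37, edgeR adjusted p = 0.895). Mdm4, an inhibitor of p53, averaged 257 ± 53.8 CPM in deficient and 171 ± 15.9 CPM in wildtype libraries, also without overlap (log2 fold change 0.59, SE 0.22, edgeR adjusted p = 0.906).

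Among 13 tested partners and turnover factors of BCL2 proteins, 7 were positive and 6 negative (median 0.09). Gzmb, the granzyme that cleaves Bid, averaged 209 ± 83.1 CPM in deficient and 381 ± 37.3 CPM in wildtype libraries, and Akt1, a kinase that phosphorylates Bad, averaged 29.5 ± 7.14 CPM in deficient and 57.2 ± 18.2 CPM in wildtype libraries. Both were lower in all 3 deficient libraries without passing (edgeR adjusted p = 0.895 for Gzmb and 0.914 for Akt1). Of the 15 tested genes of interleukin-15 survival signalling, 6 were positive and 9 negative (median -0.18). Foxo3, a transcription factor known to drive Bcl2l11 and Bbc3, had 67.9, 68.7 and 88.8 CPM in deficient libraries and 126, 121 and 124 CPM in wildtype libraries. The groups stood well apart, with little spread in wildtype, but it did not pass (log2 fold change -0.72, SE 0.26, edgeR adjusted p = 0.906). Il15ra averaged 10.8 ± 3.91 CPM in deficient and 31.9 ± 32.3 CPM in wildtype libraries, with wildtype library 1 at 68.5 CPM.

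**Figure D4:**
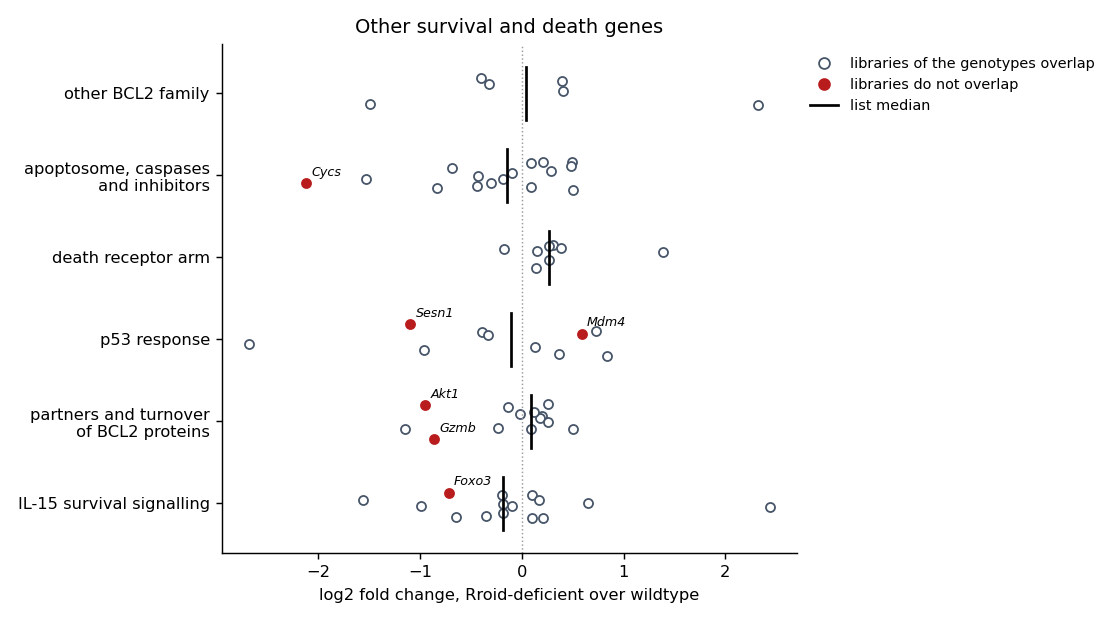
Log2 fold changes, Rroid-deficient over wildtype, of the tested genes in 6 lists of survival and death genes, with filled points for genes whose libraries did not overlap between genotypes and a line for each list's median. The list medians lie between -0.18 and 0.27, and 6 of 68 genes (8.82%, against 12.4% of all tested genes) are filled, none of which passed in edgeR.

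Precision depended on level. The SE had a median of 0.25 on the log2 scale for tested genes at a mean of 100 CPM or more, 0.48 from 20 to 100 CPM, 0.89 from 5 to 20 CPM and 1.41 under 5 CPM. Bcl2, Mcl1, Bak1 and Bcl2l11 belong to the first of these levels, Bcl2l1, Bax and Bid to the second, and Bmf, Bbc3 and Bad to the third. The plot of fold changes across fits gives the spread of each member.

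**Figure D5:**
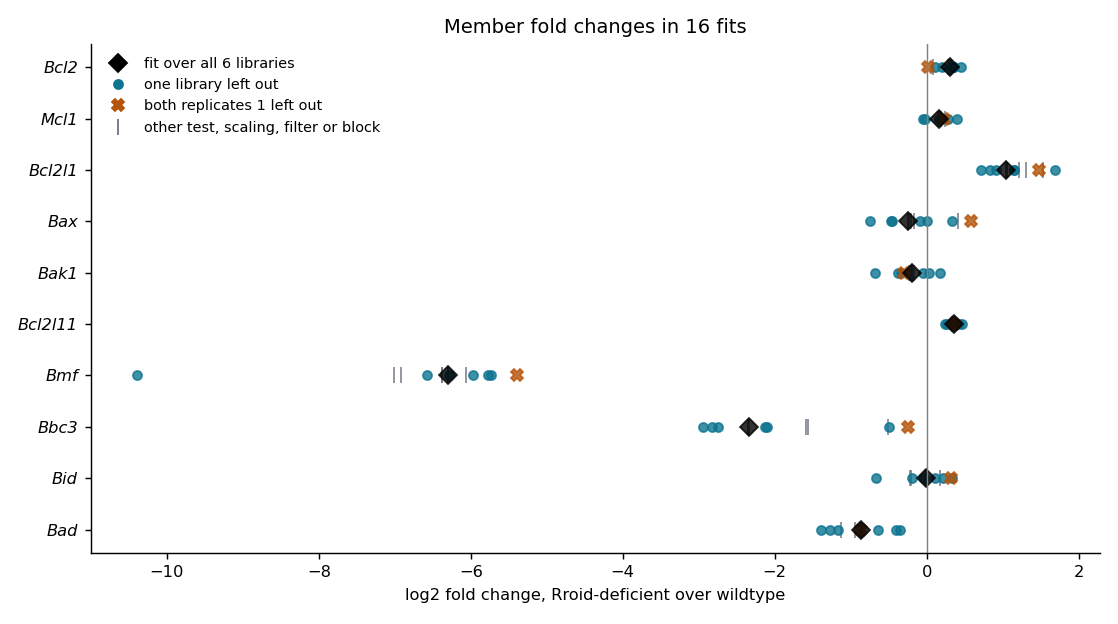
Log2 fold change of each member, Rroid-deficient over wildtype, in the fit over all 6 libraries (diamond) and in 15 alternatives that left out libraries or used another test, scaling, filter or block. Bmf lies at -5.39 or lower throughout, where the value near -10 is the fit without deficient library 3 and depends on how counts of 0 are handled; Mcl1, Bax, Bak1 and Bid cross 0.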

How the data were processed

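Per the labels' protocols, libraries came from the Ovation V2 amplification system, which does not mark strand, and single reads were made. The submitters' processing notes name Trimmomatic 0.33, TopHat2 2.1.0, HTSeq 0.6.1 and DESeq2, with builds NCBIM37 and mm9; their settings and the use of strand in counting were not stated. The authors deposited raw counts per Ensembl gene for each library, with 5 closing rows that name no gene (80.0% to 84.4% of listed reads), left out here. Symbols and exon lengths came from a GRCm38 annotation, which named 32919 of 37991 genes, and no count coordinates are printed.

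Libraries were grouped by title. The test was edgeR 4.0.16 (R 4.3.3) using TMM factors, the filterByExpr filter and the quasi-likelihood test of genotype (no block term), with Benjamini-Hochberg adjustment at 0.05 over 11724 genes. SE came from the fold change and F statistic. CPM used TMM-scaled library sizes. Alternatives used RLE factors, DESeq2 1.42.0 with and without the filter, limma 3.58.1 voom with and without quality weights, no filter, a stricter filter (10 counts in 3 libraries, mean of 2 CPM), a replicate block, and left-out libraries; class sums also used total reads and length. The test was checked on simulated counts. Every pair of libraries differed by more than sampling noise (smallest chi-square over its degrees of freedom 19.2).

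The members, lists, alternatives and the choice of replicates 1 to leave out were made with earlier results of these data known. Named were all members, all tested other family genes, and per further list members that passed or else the 2 of smallest p; untested family genes were named after their values were seen.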

Additional observations from a re-analysis of the deposited data

How the results depend on the processing

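Across 15 alternative fits, Bcl2, Bcl2l1, Bcl2l11, Bmf, Bbc3 and Bad kept their direction, although the log2 fold change of Bcl2, 0.31 in all 6 libraries, was 0.014 without replicate 1 of both genotypes, 0.084 with quality weights and 0.10 without deficient library 1. The number of BCL2 family members called was 0 with edgeR and became 1, Bmf, with DESeq2 on the filtered genes, with DESeq2 without a filter and with edgeR without a filter on low counts; it was 0 in the other alternatives. Over all genes the count of 2 became 65, 88 and 98 in those 3 fits, 1 with limma-voom, 8 with limma-voom and sample quality weights, 0 without wildtype 1 and deficient 1 together and 0 to 0 when any 1 library was left out. None of the 67 to 75 genes of the wider lists tested in each fit was called in edgeR or in these alternatives. Bax turned to 0.41 with quality weights and 0.58 without replicates 1 of both genotypes, and Bid to 0.17 and 0.32. With 1 library left out the log2 fold change ran from -0.75 to 0.33 for Bax, -0.66 to 0.33 for Bid, -0.051 to 0.40 for Mcl1 and -0.68 to 0.18 for Bak1. For these reversals the cause was not tested. The log2 ratio of summed BH3-only levels was 0.08 in CPM and -0.17 in CPM per kb of exon, which gives the long Bcl2l11 less weight.

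With the replicate number as a block, 0 genes passed and Bmf had a log2 fold change of -7.01 (edgeR adjusted p = 0.961). Over all tested genes, the deviations of same-numbered libraries from their group means correlated at 0.01, -0.02 and 0.04. Such values over all genes cannot tell whether same-numbered libraries were handled together. Bmf, Bbc3 and Bad had the largest SE among the members.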

Other observations

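Bak1 and Ggnbp1, which overlap on opposite strands, ordered the 6 libraries identically in raw counts. Raw counts carry the depth of each library, and the order was not compared after scaling. Reads counted for Ggnbp1 were 0.625, 0.581 and 0.686 of those for Bak1 in deficient libraries 1 to 3 and 0.699, 0.544 and 0.548 in wildtype libraries 1 to 3. For Bid and Bcl2l13, which also overlap on opposite strands, the same ratio was 1.25, 4.13 and 0.873 in deficient libraries and 1.62, 0.681 and 2.24 in wildtype libraries.

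The antisense RNA D630008O14Rik, which shares 558 exonic bases with Bcl2, had 370, 135 and 235 counts in deficient libraries and 91, 218 and 167 in wildtype libraries, or 0.092, 0.050 and 0.088 of the Bcl2 counts in deficient and 0.042, 0.060 and 0.065 in wildtype libraries. Wildtype library 1 held the highest level of 4 death genes, Bax, Bak1, Bmf and Bbc3, and deficient library 1 the highest level of all 3 anti-death genes.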
